A study of Mus musculus with 4 samples.

Results

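The 10 receptor genes described here, through which cells read cytokines, were measured in nuclei of the mouse lateral septum (LS), a forebrain region with many types of inhibitory neuron. The genes were taken by symbol from the 32285 genes of the count matrices, and all of them were found: Ifngr1, Ifngr2, Ifnar1, Ifnar2, Il4ra, Il6st, Il17ra, Tnfrsf1a, Il1r1 and Il1rap. Nuclei came from 4 single-nucleus RNA sequencing libraries of male mice of 6 to 8 weeks, each made from 3 pooled animals, so that a library is the unit of comparison and the animals within it cannot be told apart. C57BL/6JNifdc mice (C57J) gave 2 libraries, 1 in batch 1 and 1 in batch 2, and BALB/c nude mice (nude) and BALB/c mice gave 1 library each, both in batch 2. Nude mice carry an inactive Foxn1, the transcription factor that the thymus needs, on a BALB/c background, and therefore lack most T cells. The loss of Foxn1 affects the skin as well as the thymus, so the nude group is not a model of T cell loss alone.

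Cytokines are secreted proteins by which immune cells signal to each other and to tissue. Interferon gamma is bound by Ifngr1 together with Ifngr2, and the type I interferons by Ifnar1 together with Ifnar2, and both pairs act through JAK kinases and STAT factors. Il4ra is the shared chain for interleukin 4 and interleukin 13, Il6st (gp130) is the shared chain of the interleukin 6 family, Il17ra is shared by several interleukin 17 receptors, Tnfrsf1a (TNFR1) binds tumor necrosis factor, and Il1r1 needs the accessory chain Il1rap to signal for interleukin 1. In the brain, microglia are the resident macrophages, and receptor genes of this kind are also used by endothelial cells, astrocytes and some neurons.

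All members lie on the forward strand in the mm10 (GRCm38) annotation, and 4 of them share chromosome 16. Ifnar2 (chr16:91372783-91405589), Ifnar1 (chr16:91485238-91507441) and Ifngr2 (chr16:91547072-91565623) follow each other there, with Il1rap far upstream at chr16:26581704-26730117. Ifngr1 is at chr10:19591949-19610229, Il4ra at chr7:125552120-125579474, Il6st at chr13:112464070-112510086, Il17ra at chr6:120463247-120487559, Tnfrsf1a at chr6:125349362-125362484 and Il1r1 at chr1:40225080-40317257. The annotation has a further gene on the same strand that overlaps Ifnar2 (Gm21970) and one that overlaps Il1r1 (Gm38070). Reads of these members may be shared with or lost to them. On the opposite strand a gene overlaps Il4ra (Gm44876) and another overlaps Il1rap (Gm20319). Whether these affect the counts of Il4ra and Il1rap was not tested. The upstream sequences of 3 members of chromosome 16 are shown because their levels, given below, set these genes apart by cell class: Ifnar2 and Ifngr2 were highest in microglia, and Il1rap in oligodendrocytes (OLs). They are the 250 bases before the RefSeq start site (build GRCm38.p6, forward strand), and capitals mark matches, on either strand, to TTCNNNGAA (the GAS element of STAT factors), GGGCGG (the core of the SP1 site) or CCAAT.
Ifnar2, chr16:91372533-91372782: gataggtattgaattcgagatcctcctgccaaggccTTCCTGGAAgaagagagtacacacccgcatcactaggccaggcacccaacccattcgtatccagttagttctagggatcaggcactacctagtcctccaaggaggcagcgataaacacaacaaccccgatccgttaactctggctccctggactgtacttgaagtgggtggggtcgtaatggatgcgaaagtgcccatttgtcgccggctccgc
Ifngr2, chr16:91546809-91547058: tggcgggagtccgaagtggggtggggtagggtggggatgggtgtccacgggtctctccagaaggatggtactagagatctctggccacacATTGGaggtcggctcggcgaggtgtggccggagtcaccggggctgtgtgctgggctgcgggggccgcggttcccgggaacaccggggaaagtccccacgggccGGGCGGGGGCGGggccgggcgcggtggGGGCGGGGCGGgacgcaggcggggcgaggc
Il1rap, chr16:26581455-26581704: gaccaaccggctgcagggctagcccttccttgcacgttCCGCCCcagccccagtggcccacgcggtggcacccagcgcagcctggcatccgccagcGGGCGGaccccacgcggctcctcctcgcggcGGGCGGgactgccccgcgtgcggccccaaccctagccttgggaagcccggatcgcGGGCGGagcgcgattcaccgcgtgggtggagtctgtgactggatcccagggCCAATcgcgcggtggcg
GC content was 54.0% in the Ifnar2 window, 74.0% in that of Ifngr2 and 74.4% in that of Il1rap, and the median over all 32851 RefSeq promoter windows of this length was 52.4%. TTCNNNGAA was found upstream of 2 members, Ifnar2 and Tnfrsf1a, and in 7.02% of all promoters. GGGCGG was found in 7 of the 10 member windows and in 32.7% of all promoters, and CCAAT in 5 of the 10 and in 33.9% of all promoters. The core of the interferon-stimulated response element (GAAA, NN, GAAA) and GAGGAAG (the core of the PU.1 site) were in none of the member windows, and were in 2.98% and 10.6% of all promoters. ACAAAG (the core of SOX sites) was in 1 member window, that of Tnfrsf1a, and in 16.5% of all promoters. The 10 windows belong to 9 members, since Il1r1 has 2 start sites, and Il17ra is named only.

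After quality limits and removal of predicted doublets, 49425 nuclei were kept, 10913 to 13075 per library, with median depths between 4076 and 8374 unique molecular identifiers (UMIs) per nucleus. BALB/c was the deepest library. Pairs of libraries shared 24 to 45 cell barcodes. Nuclei were clustered without the members and without the related pathway genes, and clusters were named by marker lists: 20872 LS neurons, 10168 other neurons (striatal, medial septal, cholinergic and glutamatergic), 7408 astrocytes, 5216 OLs, 1904 oligodendrocyte precursor cells (OPCs), 1365 microglia, 676 neuroblasts, 423 dividing cells, 238 newly forming OLs, 174 vascular cells, 76 fibroblasts and 55 ependymal cells, while 850 nuclei stayed unnamed. Levels of markers from these lists are a description and no check of the names, since the same lists named the clusters. Trpc4 was at 818 to 860 CPM (UMIs of a gene per 1000000 UMIs of a class in a library) in LS neurons and 125 to 195 in other neurons. Cx3cr1 was at 514 to 1110 in microglia and 5.49 to 9.75 in LS neurons. Mog was at 609 to 778 in OLs and 4.64 to 10.2 in LS neurons. Of the LS markers, Zeb2 was higher in OLs (1516 to 2285) than in LS neurons (136 to 208). RNA of other cells was found in glial nuclei and was lowest in BALB/c: the 4 neuron markers summed to 2115, 2403, 2734 and 1136 CPM in microglia of C57J 1, C57J 2, nude and BALB/c. All levels below are CPM, values are listed in that order of libraries, and levels are compared between classes or libraries for 1 gene at a time.

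Microglia held the highest level of most members. Of 8 classes with 50 or more nuclei in every library, microglia were highest in all 4 libraries for 7 of the 10 members, Ifngr1, Ifngr2, Ifnar2, Il4ra, Il6st, Il17ra and Tnfrsf1a, while 7.37% of the 19788 genes with 50 or more UMIs had that pattern. Il1rap was highest in OLs in all 4 libraries, a pattern of 4.32% of those genes. The highest class of Ifnar1 and of Il1r1 differed between libraries. Because classes are clusters of the same nuclei, these are descriptions and carry no test.

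**Figure D1:**
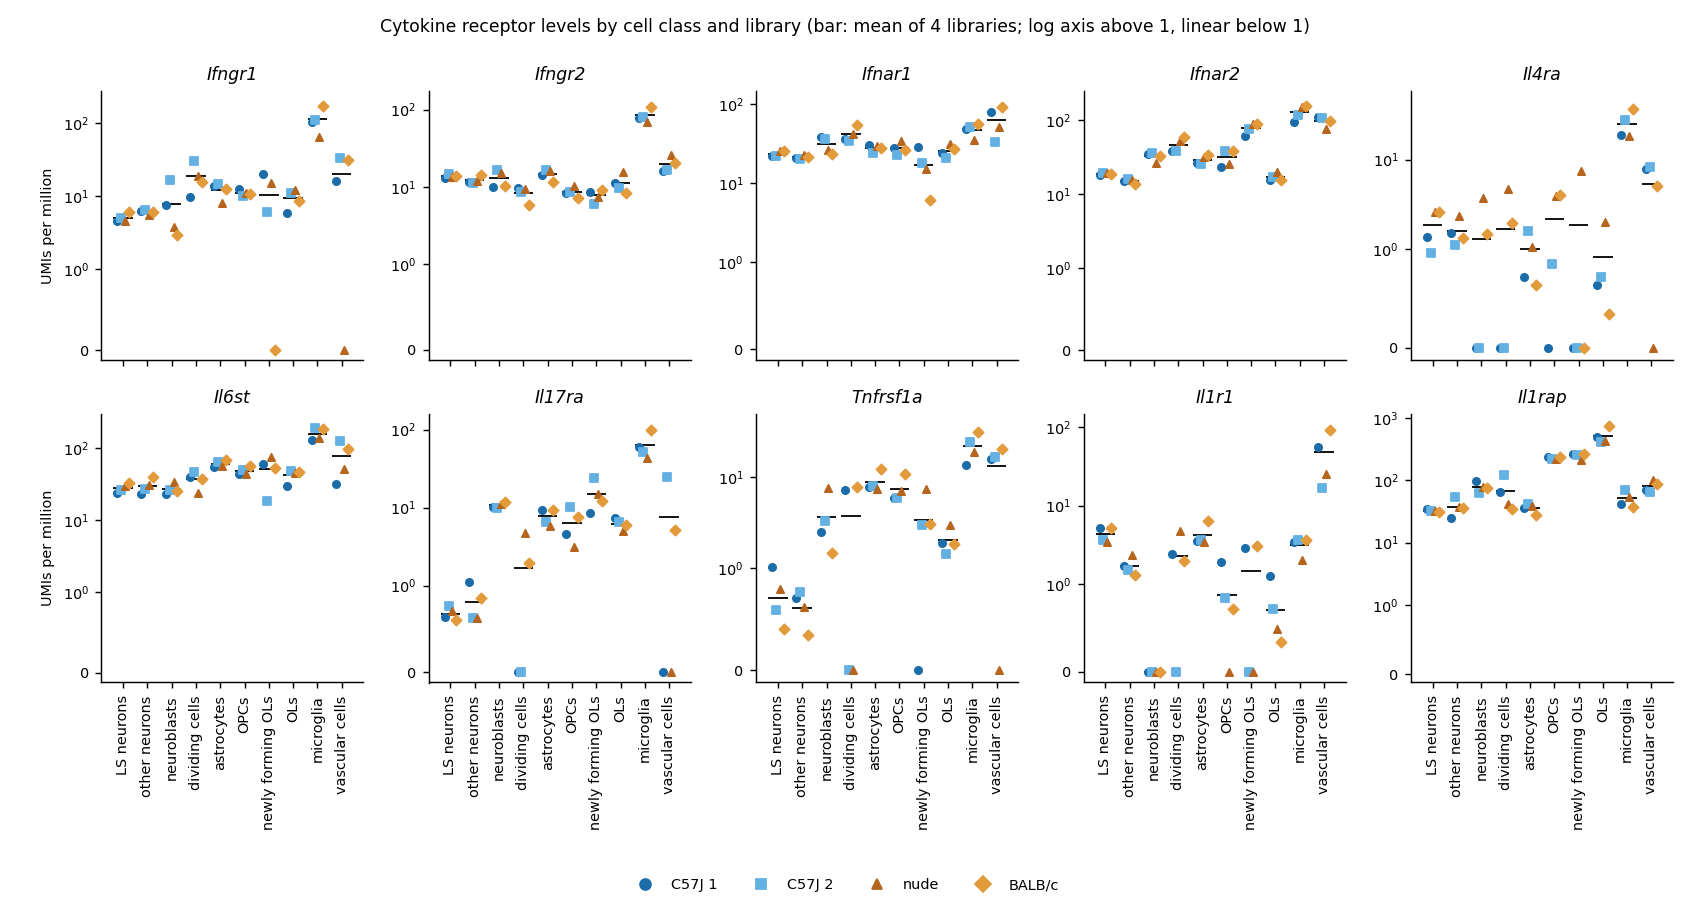
Level of each receptor gene in CPM (log axis above 1, linear below) by cell class, with 1 point per library and a bar at the mean of the 4 libraries. Microglia stand highest for 7 genes and OLs for Il1rap, at 417 to 737, and Il17ra is at most 1.11 in both neuron classes. Points of newly forming OLs and vascular cells rest on few UMIs, and for Ifnar1 and Il1r1 the mean of vascular cells is above that of microglia.

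The 2 chains of the interferon gamma receptor were far higher in microglia than elsewhere. Ifngr1, the ligand-binding chain, was at 104, 110, 63.7 and 170 in microglia, from 61, 60, 31 and 139 UMIs, and at 4.49, 4.93, 4.51 and 5.99 in LS neurons. The lowest microglial library was above the highest library of every other class. Among the 8 larger classes the next in order were dividing cells, at 9.70 to 29.7 from 4, 7, 4 and 8 UMIs, and astrocytes at 7.87 to 14.5. Within libraries, microglia exceeded LS neurons by 4.41 ± 0.42 on the log2 scale (SD, n = 4), which is 21.3-fold. Ifngr2, the signalling chain, was at 78.3, 80.5, 69.9 and 109 in microglia and 13.1, 14.8, 13.2 and 13.8 in LS neurons, a difference of 2.60 ± 0.26 (SD, n = 4). Below microglia the order of classes for Ifngr2 could not be told from the spread between libraries, with ranges of 11.7 to 16.3 in astrocytes, 11.2 to 14.2 in other neurons and 8.29 to 15.3 in OLs. For Ifngr1, too, each class below microglia overlapped with the next one in the order.

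The type I interferon receptor chains differed from each other in pattern. Ifnar1 was spread over all classes, at 47.7, 51.2, 34.9 and 56.3 in microglia, a mean of 27.8 over the libraries in astrocytes and 21.8 to 25.1 in LS neurons. No class stood apart from its neighbour in the order of Ifnar1 levels, and in nude the dividing cells, at 42.3, were above microglia. Ifnar2 was at 95.3, 117, 150 and 156 in microglia, from 56, 64, 73 and 127 UMIs, and at 18.4, 19.2, 19.1 and 18.5 in LS neurons. Between neighbours in the Ifnar2 order there was no overlap from microglia to dividing cells (38.2 to 58.6) or from these to neuroblasts (26.2 to 36.3). There was also none from astrocytes (25.3 to 33.9) to LS neurons, and the other steps overlapped. Dividing cells, on 16, 9, 11 and 30 UMIs, did overlap with OPCs (23.2 to 38.8), which stood below neuroblasts by mean. Neuroblasts had 14, 11, 7 and 22 UMIs. Among small classes, Ifnar2 in vascular cells was at 111, 107, 76.2 and 96.7, from 14, 13, 3 and 19 UMIs, and Ifnar1 there at 79.1, 33.1, 50.8 and 91.6, from 10, 4, 2 and 18 UMIs.

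Ifnar2 was also high in newly forming OLs, the stage between precursor and myelinating cell that is marked by Enpp6 and Bcas1. It was at 60.4, 75.4, 89.3 and 88.2 there, against 23.2, 38.8, 25.8 and 38.3 in OPCs and 15.4 to 19.8 in OLs. The lowest of the newly forming OL libraries was above the highest of the OPC and OL libraries, on 12 to 29 UMIs per library. The exact 95% Poisson interval of the newly forming OLs was 37.4 to 92.3, 48.8 to 111, 46.1 to 156 and 59.1 to 127. That of the OPCs was 16.3 to 32.2, 28.4 to 51.7, 17.75 to 36.2 and 31.4 to 46.3. The intervals of the 2 classes overlapped in C57J 2. With 1000 UMIs drawn from each nucleus, 7.59% of newly forming OLs (18 of 237, exact binomial interval 4.56 to 11.7%) held an Ifnar2 UMI, as did 3.00% of OPCs (2.28 to 3.87%) and 1.52% of OLs (1.20 to 1.89%). These intervals pool the nuclei of all libraries and leave out the spread between libraries. By library the shares were 6.3, 9.6, 8.1 and 5.3% in newly forming OLs. They were 2.2, 4.2, 2.4 and 3.2% in OPCs and 1.4, 1.6, 1.3 and 1.7% in OLs.

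Il4ra was rare outside microglia. It was at 18.7, 27.5, 18.5 and 36.7 in microglia, on 11, 15, 9 and 30 UMIs, and at 1.35, 0.958, 2.61 and 2.56 in LS neurons, so that microglia exceeded LS neurons by 3.83 ± 0.82 (log2, SD, n = 4). In OLs it was at 0.338 to 1.98 and in astrocytes at 0.640 to 1.58. OPCs of C57J 1 held 0 UMIs of Il4ra and those of BALB/c 3.98 CPM. Il6st, by contrast, was found in every class. It was at 126, 185, 136 and 180 in microglia, 54.6, 64.0, 55.3 and 66.8 in astrocytes, 29.7 to 48.0 in OLs, 43.8 to 55.7 in OPCs and 24.0 to 32.7 in LS neurons, where it was 2.46 ± 0.26 below microglia on the log2 scale (SD, n = 4). Fibroblasts, which line the meninges, had Il6st at 96.8, 180, 129 and 258, but from 4, 5, 3 and 39 UMIs.

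Il17ra and Tnfrsf1a were scarce in neurons. Il17ra was at 59.6, 51.2, 43.2 and 100 in microglia, 9.89 to 11.8 in neuroblasts, 5.77 to 9.28 in astrocytes, 4.94 to 7.33 in OLs and 0.632, 0.761, 0.704 and 0.603 in LS neurons. Tnfrsf1a, the widely used receptor of tumor necrosis factor, was at 13.6, 23.8, 18.5 and 30.6 in microglia, from 8, 13, 9 and 25 UMIs, at 7.67, 7.90, 7.34 and 12.3 in astrocytes and at 1.05, 0.592, 0.798 and 0.402 in LS neurons. OPCs (5.81 to 10.8) and astrocytes overlapped in Tnfrsf1a, and OLs (1.43 to 2.96) were above LS neurons in every library.

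The makeup of the microglial class differed between libraries. The 6 microglial markers summed to 3205, 2363, 2138 and 4585 CPM in it, and the 5 markers of border macrophages to 52.8, 11.0, 10.3 and 159, so BALB/c was highest for both, as it was for every member but Il6st and Il1rap. The part of this makeup in the microglial values was not tested. A UMI of a border macrophage marker was held by 37 of the 1365 nuclei, and the levels were about as large without them, when Ifngr1 was at 108, 108, 64.7 and 167 and Il17ra at 60.0, 52.0, 43.8 and 100. Per 1000 UMIs of the microglial markers, Ifngr1 was at 32.4, 46.5, 29.8 and 37.1 and Il17ra at 18.6, 21.7, 20.2 and 21.9. On that scale the order of the libraries changed. The 7 T cell markers summed to 3.66 to 10.2 CPM in microglia and 3.07 to 4.88 in LS neurons, and 3 of the 7 were found in microglia.

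As a guide to how much of a low level could be RNA of microglia in other nuclei, levels were set beside the microglial markers. In LS neurons these markers stood at 0.498 to 1.83% of their microglial level. The markers named the clusters and were not left out of the clustering, as the members were. Their share in other classes may be too low for that reason, which was not tested. Il17ra in LS neurons was at 0.600 to 1.63% of its microglial level, within that range, and in other neurons at 0.857 to 1.86%, where the markers were at 0.553 to 2.09%. Il17ra was above the markers in 3 of 4 libraries in LS neurons and in 2 of 4 in other neurons. Ifngr1 in LS neurons was at 3.52 to 7.07%, Ifngr2 at 12.7 to 18.9%, Ifnar2 at 11.9 to 19.3%, Il6st at 14.3 to 21.9% and Ifnar1 at 43.0 to 71.7% of the microglial level, each above the markers in all 4 libraries. Il4ra at 3.49 to 14.1% and Tnfrsf1a at 1.31 to 7.68% were also above the markers in LS neurons of all 4 libraries, and Il4ra in OLs in only 3.

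**Figure D2:**
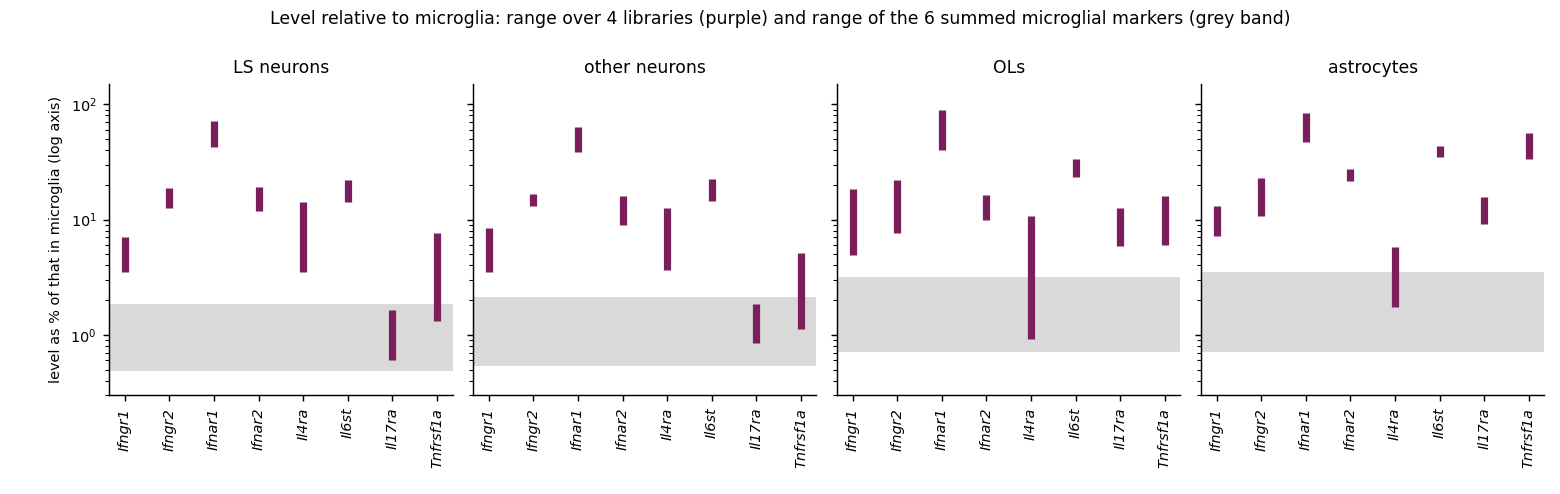
Level of 8 receptor genes in 4 cell classes as a percentage of the level in microglia of the same library (log axis), as the range over the 4 libraries, with the range of the 6 summed microglial markers as a grey band. Il17ra lies inside the band in both neuron classes, while Ifnar1, Ifnar2, Ifngr1, Ifngr2 and Il6st lie above it in all 4 classes shown.

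Il1rap marked the oligodendrocyte lineage. It was at 492, 417, 436 and 737 in OLs, 268, 260, 216 and 262 in newly forming OLs and 236, 224, 217 and 238 in OPCs, against 34.3, 32.7, 32.2 and 30.8 in LS neurons. Among the 8 larger classes, OLs were above OPCs, and OPCs above the rest, with no overlap between libraries, whereas newly forming OLs overlapped with OPCs. Within libraries OLs exceeded LS neurons by 3.96 ± 0.42 and OPCs exceeded them by 2.82 ± 0.09 on the log2 scale (SD, n = 4). OLs fell into 3 clusters, and the BALB/c value was the highest in each: 769 against 460 to 537 in cluster G1, 664 against 385 to 457 in cluster G2 and 532 against 412 to 476 in cluster G8. The 5 OL markers, at 13600, 11990, 9823 and 16020 in OLs, were also highest in BALB/c, and their part in the result was not tested. Per 1000 of their UMIs Il1rap was at 36.2, 34.8, 44.4 and 46.0. In CPM the BALB/c background and C57J libraries overlapped, and nude had the lowest sum of these markers. With 1000 UMIs drawn per nucleus, 38.0% of OLs (exact binomial interval 36.6 to 39.3%), 19.9% of OPCs (18.1 to 21.7%) and 21.1% of newly forming OLs (16.1 to 26.9%) held an Il1rap UMI, against 2.98% of LS neurons (2.75 to 3.22%). Without that draw, these shares were 64.2%, 48.0%, 57.1% and 18.8%. The intervals pool the nuclei of all libraries and leave out the spread between libraries. By library the drawn shares were 35.5, 33.0, 32.6 and 48.6% in OLs and 20.4, 19.6, 17.8 and 21.8% in OPCs. In newly forming OLs they were 21.5, 24.1, 8.11 and 26.3%.

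**Figure D3:**
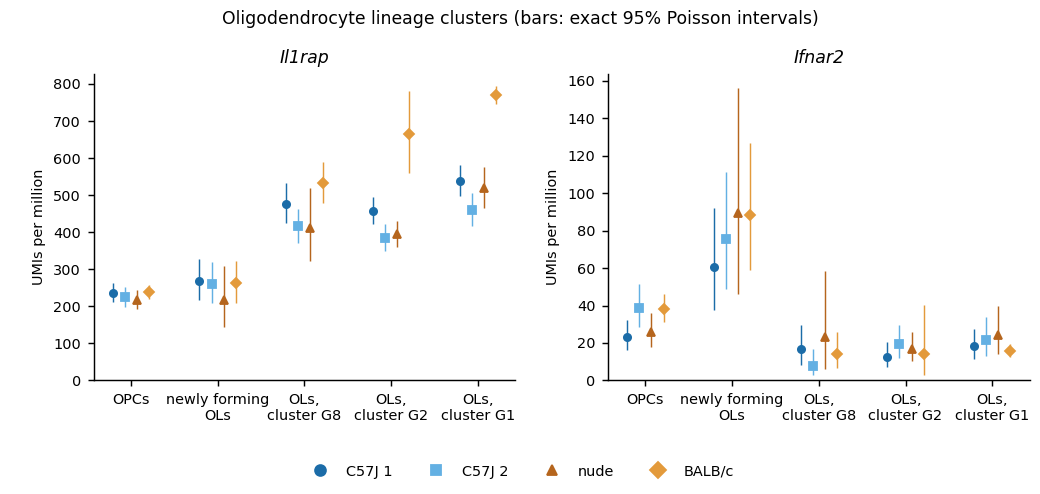
Level of Il1rap (left) and Ifnar2 (right) in CPM in clusters of the oligodendrocyte lineage, with 1 point per library and exact 95% Poisson intervals, which cover counting error only. Il1rap is at 216 to 268 in OPCs and newly forming OLs and at 385 to 769 in the 3 OL clusters, whereas Ifnar2 is at 60.4 to 89.3 in newly forming OLs and below 39 in the other clusters.

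Il1rap outside OLs was set beside the OL markers in the same way and with the same limit. In astrocytes Il1rap was at 3.84 to 9.92% of its OL level and the 5 markers at 4.35 to 11.0%, and in microglia at 5.15 to 17.1% and 7.44 to 17.9%. The gene was above the markers in 1 library of 4 in astrocytes and in 0 of 4 in microglia. In LS neurons it was at 4.18 to 7.83% and the markers at 1.68 to 3.54%, and in OPCs at 32.3 to 53.7% and 3.87 to 9.28%, above the markers in all 4 libraries in both classes.

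Il1r1, the ligand-binding partner of Il1rap, followed another order. It was at 5.12, 3.61, 3.47 and 5.21 in LS neurons and 3.57, 3.69, 3.41 and 6.40 in astrocytes, which overlapped, and at 1.27, 0.716, 0.494 and 0.338 in OLs. Vascular cells had 55.3, 16.5, 25.4 and 91.6, from 7, 2, 1 and 18 UMIs in 174 nuclei, so only the BALB/c and C57J 1 values rest on more than 3 UMIs. Neuroblasts held 0 Il1r1 UMIs in every library. Il1r1 was thus scarce in the class where Il1rap was highest: a UMI of Il1rap was in 64.2% and one of Il1r1 in 0.173% of the 5216 OLs, and 4 OLs held both.

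Within neurons, receptor levels differed between types, which are named here by their 2 leading genes. Il1r1 was highest in the Ndst4 Cdh23 type of LS neurons, at 11.5, 6.66, 6.48 and 8.91 from 79, 24, 30 and 74 UMIs, above the next type by mean (Pax6 Eya4, 3.10 to 7.30) in each of the 4 libraries, although their ranges met and Chat Slc5a7 neurons of C57J 2 reached 8.74 from 6 UMIs. By mean it was lowest in the striatal types Rarb Prkch, at 0 to 0.854, and Gpr149 Pkib, at 0 to 0.997. The striatal type Foxp2 Chst9 was at 0 to 3.33. Il1rap ran from 7.73 to 13.9 in Casz1 Gbx1 neurons, a medial septal type, up to 55.9 to 101 in the glutamatergic Ebf2 Ebf3 neurons. The Pde11a Glra3 neurons were at 34.9, 87.0, 56.9 and 79.6, from 169, 437, 281 and 460 UMIs, and the exact 95% Poisson intervals of C57J 1 (29.9 to 40.6) and C57J 2 (79.0 to 95.5) were apart. Nxph1 Pth2r neurons, at 50.4 to 57.1, were highest for Il1rap among LS types and stood clear of Ndst4 Cdh23 neurons at 38.6 to 46.6.

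The orders of neuron types for the interferon receptor chains and Il6st were gradual. Ifnar2 ranged from a mean of 10.8 in Casz1 Gbx1 to 22.2 in Nxph1 Pth2r neurons, Ifngr2 from 9.82 in Pde11a Glra3 to 18.3 in Ebf2 Ebf3 neurons and Ifngr1 from 4.14 in Casz1 Gbx1 to 8.18 in Ebf2 Ebf3 neurons. Il6st ran from 20.6 in Rarb Prkch to 43.1 in Ebf2 Ebf3 neurons. No step of these 4 orders was free of overlap between neighbours. Il17ra and Tnfrsf1a had means of at most 1.32 and 1.84 in all 19 types, on few UMIs. Ifnar1 had a mean of 17.4 to 25.5 in 18 types and 32.8 in the small Gpr149 Pkib type, where the libraries spread from 14.7 to 46.2.

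**Figure D4:**
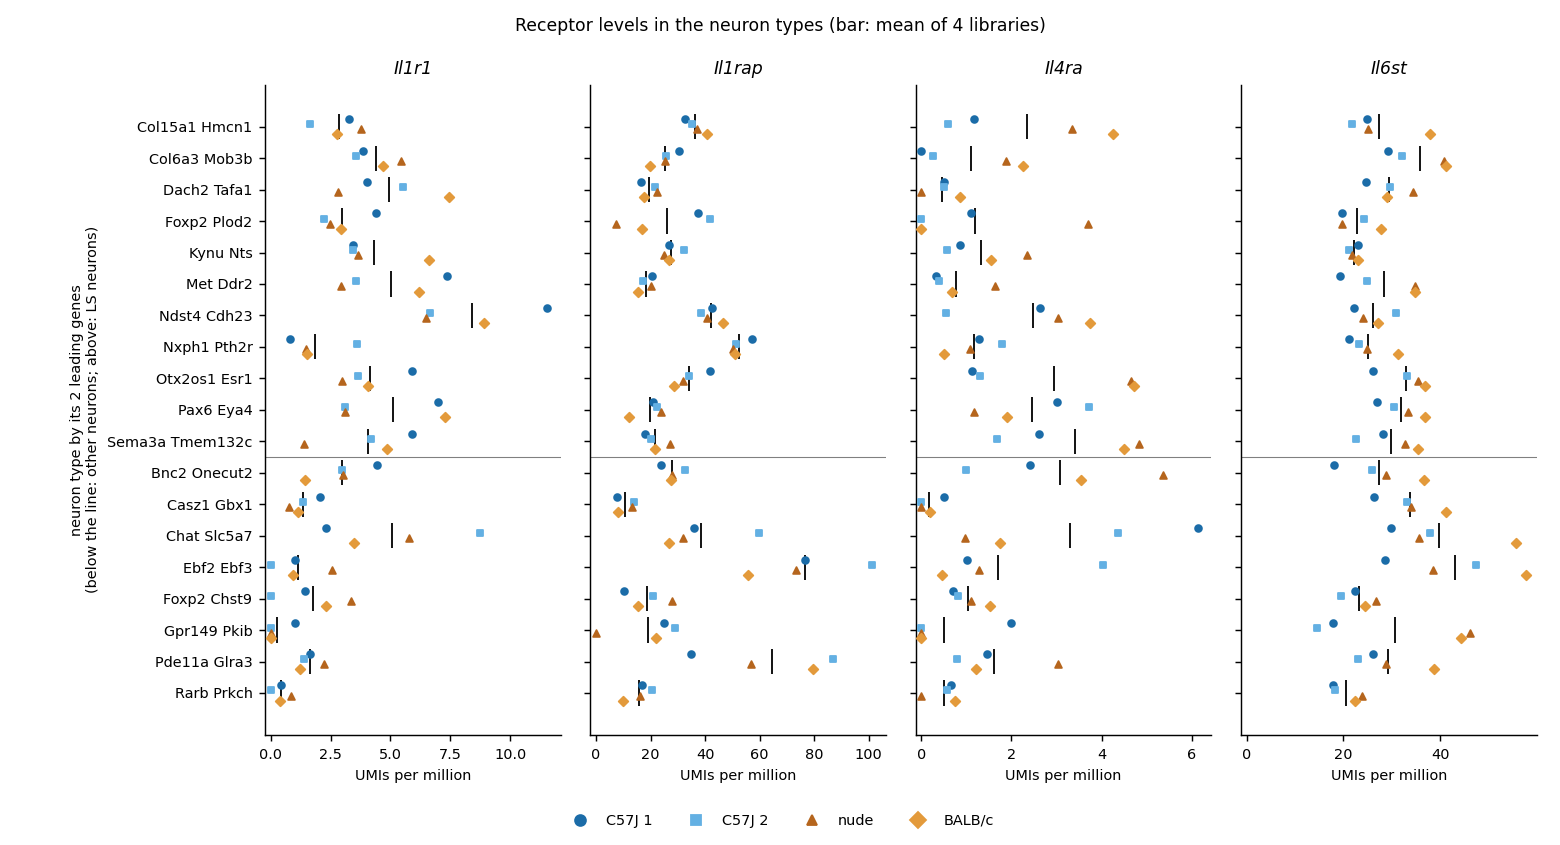
Level of Il1r1, Il1rap, Il4ra and Il6st in CPM in 19 neuron types, each named by its 2 leading genes, with 1 point per library and a bar at the mean of the 4 libraries. By mean, Il1r1 is highest in the Ndst4 Cdh23 type (6.48 to 11.5) and Il1rap in the Ebf2 Ebf3 type (55.9 to 101), and Il4ra reaches at most 6.13.

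Detection in single nuclei was sparse, which limits statements about nuclei that use both chains of a receptor. As deposited, 44 of 1365 microglia (3.22%) held UMIs of both Ifngr1 and Ifngr2, 124 (9.08%) both Il6st and Il6ra, 4 (0.293%) both Il4ra and Il13ra1, and 23 (1.68%) both Ifnar1 and Ifnar2. None held both Il1r1 and Il1rap, and none held both Il17ra and Il17rc, where a count of 0 covers nuclei with a UMI and not nuclei that express the gene. Il6ra, the binding chain for interleukin 6, was at 189 to 545 in microglia and 2.20 to 2.98 in LS neurons, whereas Il17rc, the partner of Il17ra, was at 1.70, 0, 0 and 0 in microglia. Among LS neurons 650 of 20872 (3.11%) held both Ifnar1 and Ifnar2 and 136 (0.652%) both Il1r1 and Il1rap. Il6ra, Il13ra1 and Il17rc were chosen as receptor partners after their values were seen.

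Genes with the most similar profile were sought over the 32 sums of 8 classes in 4 libraries, among 14551 genes with 500 or more UMIs, by the Pearson correlation of log2(CPM + 1). The sums share libraries and depth, so the correlations are descriptions. Mtdh (r = 0.92) was among the closest to Ifngr1, closest to Ifngr2 were Myo1f (0.95) and Runx1 (0.95), and closest to Ifnar2 were Golm1 (0.96) and Slc7a7 (0.94). Il1rap was most like Phldb1 (0.96) and Plxnb3 (0.95). Il4ra was most like Cmtm7 (0.92) and Mylip (0.89), Il6st like A830008E24Rik (0.92) and Rrbp1 (0.92), Il17ra like Cycs (0.88) and Ctsd (0.88), and Tnfrsf1a like Mertk (0.87) and Lhfpl2 (0.86). Ifnar1 was most like Ube2d3 (0.87) and Zbtb18 (0.86), and Il1r1 like Oxct1 (0.80) and Atxn7 (0.76).

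Whether receptor levels differed between the strain backgrounds was asked by comparing the 2 C57J libraries with nude and BALB/c on summed counts, with edgeR's quasi-likelihood test and Benjamini-Hochberg adjustment over all genes tested. A gene was called where its log2 fold change exceeded 0.5 in either direction and its adjusted p was under 0.05. By edgeR and by DESeq2, 0 members were called in all 6 classes. The calls over all genes were 428 of 18640 (2.30%) in LS neurons, 151 (0.892%) in other neurons, 9 (0.0640%) in astrocytes, 5 (0.0399%) in OLs, 27 (0.248%) in OPCs and 0 (0%) in microglia. At an unadjusted p below 0.05 edgeR gave 2 of 10 members in LS neurons (14.5% of all genes), 1 of 10 in other neurons (12.8%), 1 of 9 in astrocytes (7.24%), and 0 of 7, 0 of 7 and 0 of 9 in OLs (5.31%), OPCs (7.64%) and microglia (5.08%). In microglia 450 genes had an unadjusted p below 0.05, and DESeq2 called 13. The median log2 fold change of the members tested was 0.02 in LS neurons, 0.02 in other neurons, 0.12 in astrocytes, 0.30 in OLs, 0.07 in OPCs and 0.24 in microglia, beside medians over all genes between -0.02 and 0.01. Nothing in the labels says how the animals were drawn, and p-values measure only the spread between these pools. Within the groups that spread holds the difference between nude and BALB/c and, in C57J, that between the batches. The backgrounds also differ in batch, since C57J 1 alone is in batch 1, and the fit without it is the comparison within batch 2.

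Il4ra came nearest to a call. In LS neurons it was at 1.35 and 0.958 in C57J and at 2.61 and 2.56 in nude and BALB/c, from 62, 34, 111 and 153 UMIs, and the groups did not overlap. The log2 fold change was 1.17 ± 0.28 (SE, edgeR quasi-likelihood test, adjusted p = 0.103). Without C57J 1 it was 1.48 and was called (edgeR, adjusted p = 0.0317), as it was without the filter on low counts (adjusted p = 0.0102). Of 12 neuron types with 10 or more Il4ra UMIs, both BALB/c background libraries were above both C57J libraries in 8 (17% of all genes and types with as many UMIs) and below both in 3 (22.1%), and the types share the libraries. They were above in Col15a1 Hmcn1 neurons, at 1.17, 0.594, 3.33 and 4.25 (log2 fold change 2.03, edgeR adjusted p = 0.0617), and in Otx2os1 Esr1 neurons, at 1.12, 1.30, 4.65 and 4.72 (1.94, adjusted p = 0.105). They were below in Nxph1 Pth2r neurons, in Chat Slc5a7 neurons, which are cholinergic and had 6.13, 4.37, 0.965 and 1.74 from 8, 3, 1 and 3 UMIs, and in Pax6 Eya4 neurons, which had 3.00, 3.72, 1.17 and 1.90 from 6, 6, 3 and 6 UMIs.

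Il6st was the other member with an unadjusted p below 0.05 in neurons. It was at 24.0 and 26.4 in C57J and 29.7 and 32.7 in nude and BALB/c in LS neurons (log2 fold change 0.33 ± 0.11 SE, edgeR adjusted p = 0.225). In other neurons it was at 22.7 and 26.9 in C57J and 30.3 and 39.3 in nude and BALB/c (0.51 ± 0.17 SE, edgeR adjusted p = 0.266), and without the filter on low counts it was called (adjusted p = 0.0441). Without BALB/c the log2 fold change in other neurons fell to 0.29. By the same count Il6st was above in 13 of 19 neuron types and below in 0, beside the shares of all genes given with Il4ra. In Met Ddr2 neurons Il6st was at 19.2, 24.8, 34.8 and 34.8 (0.72, edgeR adjusted p = 0.126). Ifnar1 was above in 8 of 19 types and below in 0, and Il1rap was above in 2 of 19 and below in 9. Ifngr1 was above in 2 and below in 2 of 18 types with 10 or more UMIs. Of 19 types, Ifngr2 was above in 4 and below in 4, and Ifnar2 in 3 and 2. Il17ra was above in 1 and below in 2 of 8 types, Tnfrsf1a in 0 and 1 of 8, and Il1r1 in 3 and 1 of 16. Across 18 neuron types fitted on their own, 0 of 118 member tests were called by edgeR, and 1.06% of all gene tests were. An unadjusted p below 0.05 was given to 13 of the 118, against 10.5% of all gene tests.

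Members whose groups did not overlap are given beside the share of all genes tested. In LS neurons Ifnar1, Il4ra and Il6st were above in both BALB/c background libraries (3 of 10 members, 19.0% of all genes) and Il1rap was below in both (1 of 10, 26.3%). In other neurons 3 of 10 members were above (Ifngr2, Ifnar1 and Il6st, against 20%) and 2 below (Ifngr1 and Tnfrsf1a, against 23.1%). In astrocytes Ifnar2, at 26.0, 25.3, 32.3 and 33.9, was above (1 of 9, against 12.1%) and Ifngr1 below (1 of 9, against 25.7%). In OLs Ifnar1 was above (1 of 7, against 12.5%) and Il17ra below (1 of 7, against 20.6%), and in OPCs 0 of 7 were above (12.5%) or below (24.5%). In microglia Ifnar2 was above (1 of 9, against 14.2%) and 0 of 9 were below (18.5%). The microglial Ifnar2 log2 fold change was 0.58 ± 0.27 (SE, edgeR adjusted p = 0.955), and per 1000 microglial marker UMIs the values, 29.7, 49.6, 70.2 and 33.9, overlapped between the groups. Ifnar2 in astrocytes had a log2 fold change of 0.44 ± 0.17 (SE, edgeR adjusted p = 0.66).

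**Figure D5:**
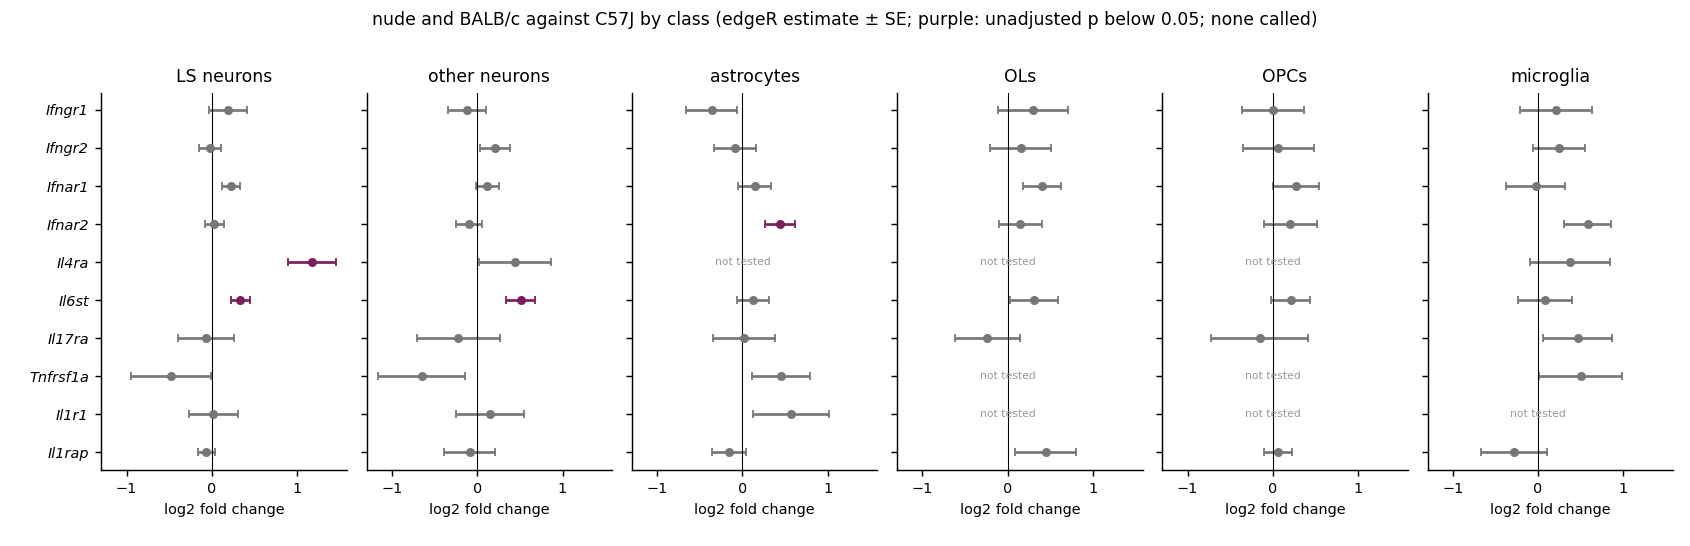
Log2 fold change of each receptor gene, nude and BALB/c over C57J, in 6 cell classes, with a standard error derived from edgeR's F statistic. Purple marks an unadjusted p below 0.05. Il4ra (1.17) and Il6st (0.33) in LS neurons, Il6st in other neurons (0.51) and Ifnar2 in astrocytes (0.44) are the 4 purple points, and none passes the adjusted threshold.

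Nude and BALB/c share a background and differ in Foxn1, with 1 library each, so their values are given without a test. In LS neurons the exact 95% Poisson intervals were apart for 2 of 10 members, Ifngr1 (4.51 in nude, 5.99 in BALB/c) and Il1r1 (3.47 and 5.21), as they were for 27.9% of all genes. In other neurons they were apart for Il6st (30.3 and 39.3, 20.4% of all genes), in astrocytes for Il1rap (39.1 and 28.3, 24.3%), where it was above the OL markers in 1 library of 4 as given above, and in OLs for Il1rap (436 and 737, 25.8%). In microglia they were apart for Ifngr1 (63.7 and 170) and Il17ra (43.2 and 100), beside 18.4% of all genes. In OPCs 0 of 7 members were apart, beside 11.0% of all genes. Nude was the lower library in all of these but Il1rap in astrocytes, and the summed microglial markers were lower in nude microglia as well, as given above. In OLs the summed OL markers were also lower in nude (9823) than in BALB/c (16020). Per 1000 of their UMIs Il1rap was at 44.4 in nude and 46.0 in BALB/c, and the part of the markers was not tested.

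The wider pathway was described by 4 lists. Of 31 partner chains, 6 to 19 were tested per class and edgeR called 0 in all 6 classes. Over the 6 classes 7 of 72 tests had an unadjusted p below 0.05, where the share of all genes was 5.08 to 14.5% by class, and DESeq2 called 1, Il7r in microglia. Il7r, the receptor chain for interleukin 7, was at 30.6 and 14.6 in C57J microglia and 113 and 202 in those of nude and BALB/c, from 18, 8, 55 and 165 UMIs (log2 fold change 2.85 ± 0.44 SE, edgeR adjusted p = 0.158). Lifr and Cntfr, partners of Il6st, had the most UMIs of that list: Lifr was at 118, 115, 142 and 161 in astrocytes and 15.7 to 18.8 in LS neurons, and Cntfr at 117, 95.4, 90.8 and 120 in astrocytes and 12.9 to 16.7 in LS neurons. Of 38 signalling genes, 36 were tested in LS neurons and 1 was called by edgeR, beside 2.30% of all genes. Over the 6 classes 9 of 177 tests of this list had an unadjusted p below 0.05 in edgeR. The called gene was Map3k7, the TAK1 kinase below the interleukin 1 and tumor necrosis factor receptors, which was lower in nude and BALB/c. It was at 81.1 and 84.1 in C57J and 57.2 and 54.8 in nude and BALB/c (log2 fold change -0.54 ± 0.08 SE, edgeR adjusted p = 0.0211) and was also called by DESeq2. The call was lost without nude (-0.55, adjusted p = 0.119), without BALB/c (-0.51, 0.207) and with nuclei thinned to 1000 UMIs (-0.38, 0.181). In other neurons it was at 70.5, 75.3, 53.5 and 48.0 (-0.51, adjusted p = 0.0965). Tab2, a partner of TAK1, was at 94.7 to 96.4 in LS neurons, and Nfkb1 at 72.2, 81.9, 85.1 and 87.5.

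Targets of interferon showed no call. Of the 28 listed targets in the matrices, 16 were tested in LS neurons and 3 to 13 in the other classes, and edgeR and DESeq2 called 0 in all 6 classes, while 7 of 53 tests had an unadjusted p below 0.05 in edgeR, beside the shares of all genes given above. The median log2 fold change of the tested targets was -0.30 in LS neurons, 0.08 in other neurons, -0.03 in astrocytes, 0.77 in OLs, -0.19 in OPCs and 0.26 in microglia, beside medians over all genes between -0.02 and 0.01. The medians of OLs and OPCs rest on 3 tested targets each, and that of OLs is the value of Rnf213. Rnf213 and Ddx58, with the most UMIs of the list, were at 35.7, 64.0, 49.3 and 66.1 and at a mean of 22.2 in microglia, and at 2.33 to 3.97 and 1.55 to 2.35 in LS neurons. Of 22 ligands, 12 had fewer than 50 UMIs in all kept nuclei, and 1 to 6 were tested per class. Over the 6 classes 4 of 20 ligand tests had an unadjusted p below 0.05 in edgeR, beside the shares of all genes given above. EdgeR called 1 of the 5 ligands tested in other neurons, Il33, beside 0.892% of all genes there, and none in another class. Ifng, Ifnb1, Ifna4 and Il17a had 0 UMIs in 306708863, which allows at most 0.00978 CPM over the 4 libraries for each.

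The ligand Il18 was at 192, 184, 168 and 200 in astrocytes and 3.72 to 6.74 in LS neurons. Il33 is an alarmin of OLs and astrocytes. It was at 192 and 113 in OLs of C57J and at 16.8 and 18.4 in those of nude and BALB/c. The log2 fold change in OLs was -3.03 ± 0.33 (SE, edgeR adjusted p = 0.0719), which missed the threshold. DESeq2 called Il33 in OLs, LS neurons and other neurons, where it called 68 of 21674, 645 of 26620 and 380 of 25543 genes. OL nuclei were divided unequally over clusters, with 646, 717, 770 and 87 in cluster G2 and 427, 371, 288 and 1274 in cluster G1. Il33 was lower in both BALB/c background libraries within each of the 3 OL clusters, at 145, 51.3, 10.7 and 19.3 in G1, at 264, 180, 21.8 and 13.8 in G2 and at 139, 83.9, 5.73 and 14 in G8, on 1 to 96 UMIs in those libraries. The edgeR call was in other neurons, at 4.49, 3.70, 1.04 and 0.903 (-2.08 ± 0.33 SE, edgeR adjusted p = 0.0427), and it was lost without nude (-2.16, adjusted p = 0.168), without BALB/c (-1.99, 0.308) or with predicted doublets kept (-2.14, 0.0558). In LS neurons the adjusted p was 0.0747. In other neurons Il33 stood at 2.34 to 6.19% of its OL level and the OL markers at 1.85 to 4.43%, and it was above the markers in 2 of 4 libraries. In astrocytes Il33 was at 49.8, 49.3, 28.3 and 28.4 (-0.73, edgeR adjusted p = 0.328). By astrocyte cluster it was at 50.95, 48.44, 25.72 and 19.84 in G0 and 22.18, 46.55, 4.715 and 4.353 in G4. In cluster G5 the groups overlapped, at 66.43, 54.67, 55.15 and 70.56.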

How the data were processed

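Nuclei from microdissected lateral septum of 4 pools of 3 mice were profiled by single-nucleus RNA sequencing. The authors deposited raw UMI counts per gene and called barcode, without normalization, and the submitters' processing notes name Cell Ranger 7.0.1 and mm10. Whether introns were counted is not given in the sources used here. Cell classes were rebuilt from the counts, so their limits may differ from the study's.

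Nuclei with 200 to 6000 genes, 300 to 50000 UMIs and under 2% mitochondrial UMIs were kept, predicted doublets (simulated pairs, 1167 to 1761 per library) were removed, and Leiden clustering (leidenalg 0.10.2, resolution 1) used 3000 genes and 40 components with 6 neighbours per library, leaving out 129 listed genes and 152 genes that differed between strains. Counts were summed per class and library. The 2 C57J libraries were compared with nude and BALB/c by edgeR 4.0.16 (quasi-likelihood, filterByExpr, TMM, Benjamini-Hochberg adjustment), with DESeq2 1.42.0 as an alternative. The SE of an edgeR log2 fold change was taken as its absolute value over the square root of the F statistic. Intervals are exact (95%), and they and the limit for a count of 0 (3 counts) cover counting error only. Library totals of the deposited counts ran from 72912922 to 125998527 UMIs. Values for named genes follow a rule: all members, list genes called in a class, the 2 list genes with the most UMIs, and the 2 genes most like each member. One gene under this rule is not reported here. Il4, Il6ra, Il7r, Il13ra1 and Il17rc were named after their values were seen. The members and lists were chosen with earlier results of these data known. Promoter sequences are from RefSeq (GRCm38.p6). Alternatives were another count model, other filters, clustering and depth, and each library left out.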

Additional observations from a re-analysis of the deposited data

How the results depend on the processing

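Microglia were the highest class for 7 members, for 6 with nuclei thinned to 1000 UMIs, for 8 without nude, and for 7 under the other alternatives run. One of these, without nuclei holding border macrophage UMIs, was chosen after seeing the data, as were the fits of single neuron types. The number of members called by edgeR was 0 in astrocytes, OLs, OPCs and microglia under every alternative. It rose from 0 to 1 in LS neurons with no filter on low counts and to 1 without C57J 1 (Il4ra), giving a range of 0 to 1 over the libraries left out, and to 1 in other neurons with no filter on low counts (Il6st). The cause was not tested. The Il4ra log2 fold change in LS neurons ran from 0.94 to 1.48 over the libraries left out, and its adjusted p from 0.0102 to 0.514 over all alternatives, and that of Il6st in other neurons from 0.29 to 0.69. No sign reversed among the single-gene fold changes recomputed (Il4ra, Il6st, Ifnar2, Map3k7 and Il33). The median log2 fold change of the members, which was above 0 in every class, did reverse. Without BALB/c this median was -0.14 in microglia, -0.06 in astrocytes and -0.05 in OPCs. In other neurons it was -0.03 without nude and -0.04 at clustering resolution 2. Calls over all genes depended on the model: edgeR gave 428, 151, 9, 5, 27 and 0 in LS neurons, other neurons, astrocytes, OLs, OPCs and microglia, and DESeq2 645, 380, 88, 68, 31 and 13. These counts also depended on the libraries, and a fit with a library left out has a group of a single library. Without nude the count rose in astrocytes, OLs, OPCs and microglia and fell in LS neurons and other neurons. The few calls in glia therefore do not show that glia lack strain differences. No paired analysis was possible because the groups share fewer than 2 replicate numbers. Microglia gave 1316 to 2650 UMIs per nucleus (median by library), which limits the precision of the rarer members there, such as Tnfrsf1a with 8 to 25 UMIs.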

Other observations

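Il4, whose receptor chain Il4ra is described above, had 852 UMIs in the kept nuclei, and Il13, its neighbour on chromosome 11, had 2. Il4 was at 1.70, 3.13, 3.24 and 3.93 CPM in LS neurons and 1.46, 3.35, 3.39 and 2.92 in other neurons of C57J 1, C57J 2, nude and BALB/c, and microglia held 0, 0, 0 and 1 UMIs. In the annotation Il4 (chr11:53602982-53618669, reverse strand) lies beside the end of Kif3a (chr11:53567379-53601967, forward strand), a motor protein gene. Rad50, on the same strand as Il4, lies upstream of both interleukin genes (chr11:53649519-53707319). The transcripts behind these UMIs were not resolved.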
